A study of Mus musculus with 36 samples.

Results

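The collagen genes of the mouse were followed in satellite cells, which rebuild skeletal muscle as its stem cells, at rest and after injury. They were chosen by name: every protein-coding gene whose symbol is Col, a number, a and a number was taken, which gave 44 genes among 55471 gene identifiers, of which 21897 were protein-coding. All 44 protein-coding collagen genes of the annotation (GENCODE M21, genome build GRCm38) were in both deposited tables. Expression is given in TPM, the share of a library's transcripts that a gene takes, corrected for transcript length and scaled to a fixed sum, and 36 RNA-seq libraries of C57BL/6 mice were measured. A table of 21 libraries held Pax7-CreER;ROSA26YFP mice, called control here, and Pax7-CreER;ROSA26YFP;Drp1fl/fl mice, called KO, all 3 months old and all given tamoxifen, so that controls also carry the Cre and the reporter. Pax7-CreER acts in cells that express Pax7, which in muscle are the satellite cells, and marks them with YFP. Cells came from uninjured hindlimb (QSC, quiescent satellite cells; n = 3 control and 3 KO), from muscle 1 day after cardiotoxin (1 DPI; n = 4 and 4) and from muscle 3 days after it (3 DPI; n = 3 and 4). They were gated on YFP, and at 3 DPI as CD34-YFP+ cells. A table of 15 libraries held WT mice aged 3 months (young; QSC n = 3, 1 DPI n = 3) and 24 months (old; QSC n = 3, 1 DPI n = 3, 3 DPI n = 3), for which no reporter and no separate gate is stated. No pooling of animals is stated, so the p-values below measure the spread between these libraries.

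Collagens are secreted or membrane proteins whose chains wind around each other in a helix. They fall into classes. Fibrillar collagens (I, II, III, V, XI, XXIV, XXVII) make the cables of connective tissue, and collagen IV makes the sheet-like network of the basement membrane that wraps each muscle fibre and its satellite cells. Collagen VI makes beaded filaments beside that membrane, the multiplexins XV and XVIII sit in it, and fibril-associated collagens (IX, XII, XIV, XVI, XIX, XX, XXII) decorate fibrils. In mouse muscle, satellite cells make part of their own niche: collagen V made by them signals through the calcitonin receptor, Calcr, to hold them quiescent, and loss of collagen VI impairs their self-renewal. Fibroblasts and fibro-adipogenic progenitors are the main makers of fibrillar collagen in muscle as a tissue.

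Upstream sequences are shown for 3 genes that were expressed at rest and called lower at 1 DPI in control cells: Col3a1, the most abundant collagen, Col5a3, a chain of collagen V, and Col15a1, a multiplexin. Each line is the 250 bases before the gene's RefSeq start (GRCm38.p6), read 5′ to 3′ on the gene's strand, with motif matches in capitals.
Col3a1 (chr1:45311288-45311537, plus strand): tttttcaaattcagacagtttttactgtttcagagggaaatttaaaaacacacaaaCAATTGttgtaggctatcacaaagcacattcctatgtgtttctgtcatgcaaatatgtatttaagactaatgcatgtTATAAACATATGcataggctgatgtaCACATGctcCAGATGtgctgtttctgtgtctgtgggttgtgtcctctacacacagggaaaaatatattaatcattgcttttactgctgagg
Col5a3 (chr9:20815068-20815317, minus strand): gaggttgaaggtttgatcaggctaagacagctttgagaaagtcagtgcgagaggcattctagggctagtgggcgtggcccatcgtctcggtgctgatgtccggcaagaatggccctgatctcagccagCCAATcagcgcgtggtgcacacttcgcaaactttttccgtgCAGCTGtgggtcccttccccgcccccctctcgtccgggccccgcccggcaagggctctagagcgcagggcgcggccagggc
Col15a1 (chr4:47207762-47208011, plus strand): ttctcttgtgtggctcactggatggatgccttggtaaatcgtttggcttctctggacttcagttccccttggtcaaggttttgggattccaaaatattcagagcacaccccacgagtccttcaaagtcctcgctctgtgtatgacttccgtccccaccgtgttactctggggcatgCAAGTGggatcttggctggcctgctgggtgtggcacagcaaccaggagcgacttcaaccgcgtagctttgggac
The motifs searched, on both strands, were the TATA box TATAAA, the CCAAT box CCAAT, the E-box CANNTG that MyoD-family factors and many others bind, and TGGGAA, the core that the Notch effector RBPJ binds. Col3a1 held TATAAA with its first base 117 bases before the start, directly followed by an E-box, and 4 E-boxes in all. Col5a3 held CCAAT at 122 and an E-box at 81 bases before the start, and Col15a1 held an E-box at 74. None of the 3 windows held TGGGAA. For all 32851 promoter windows of the same length the shares with a match were 12.4% for TATAAA, 33.8% for CCAAT, 66.2% for CANNTG and 21.6% for TGGGAA. The 38 windows that matched 35 of the collagen genes held them in 5, 13, 19 and 12 windows.

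Col4a1 and Col4a2, the chains of the common collagen IV, lie head to head and are transcribed away from each other. Their annotated first exons overlap by 22 bases at chr8:11312805-11312826, given here on the plus strand (Col4a2's) because a read from these bases alone could come from either gene.
Col4a1 and Col4a2 overlap: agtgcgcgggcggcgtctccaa
Col1a2, the chain of collagen I that rose most after injury, has a CCAAT box with its first base 109 bases before its RefSeq start. It lies in the 30 bases at chr6:4505496-4505525 (plus strand, CCAAT in capitals). The GENCODE gene begins further upstream, at chr6:4504814, so these bases lie inside the annotated gene. In the window before the RefSeq start, chr6:4505368-4505617, 2 annotated exons were counted. Which start these cells use was not tested.
Col1a2 CCAAT box: aaaaagaatggaaCCAATttaagaagcccc

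The libraries differed in what else they held. Dnm1l, the gene of Drp1, was 29.2, 22.2, 37.5 and 24.2 TPM in the 4 KO libraries at 3 DPI against 69.8, 61.5 and 64.9 TPM in the controls, a log2 difference of -1.21 (limma adjusted p = 0.00115). In QSC the KO values of 32.7 to 43.4 TPM overlapped the control values of 30.9 to 39.5 TPM, and at 1 DPI the KO libraries held 28.99 to 41 TPM against 43.9 to 52.9 TPM (log2 -0.49, limma adjusted p = 0.699). Gene-level TPM does not show which exons the reads covered, so these values do not settle how far the gene was deleted. The satellite cell markers Pax7, Myf5 and Vcam1 were present in every group, and Pax7 lay between 2.74 and 33.0 TPM. Control libraries 1 and 3 and KO library 2 at 1 DPI stood apart: they held 15.2, 14.99 and 22.2 TPM of Pdgfra, the fibroblast marker, against 0.341 to 5.88 TPM in the other 5, and the summed macrophage markers reached 2836, 4343 and 8543 TPM. The old 3 DPI libraries held 5977 to 7381 TPM of the same 12 macrophage markers. The young and old table holds no 0: in each library 23850 to 24214 genes share 1 value between 0.0208 and 0.0253 TPM, so its values near 0, and levels set across the tables, are uncertain. In bulk RNA, a change in the make-up of the sorted cells and a change of RNA per cell cannot be told apart.

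At rest, satellite cells expressed a small set of collagens, and Col3a1 led it. Col3a1 (ENSMUSG00000026043, chr1:45311538-45349706, plus strand, GRCm38), which forms collagen III, the fine fibrils of the muscle interstitium, was at 173, 234 and 258 TPM in control QSC and at 233, 284 and 183 TPM in young QSC. All of these libraries had it as their most abundant collagen, with 43.9 to 52.8% of the summed collagen TPM. Col4a1 followed with 68.0 ± 19.8 TPM (SD, n = 3) in control QSC, then Col6a1, a chain of collagen VI, with 56.0 ± 13.01 TPM, Col5a2 of collagen V with 33.3 ± 5.83 TPM and Col15a1 with 21.2 ± 6.68 TPM. Young QSC had the same 5 genes at the top, with 61.2 ± 6.396 TPM of Col4a1, 56.4 ± 1.82 TPM of Col6a1, 27.4 ± 4.32 TPM of Col5a2 and 23.5 ± 12.8 TPM of Col15a1 (n = 3). Among these means, those of Col4a1 and Col6a1 lie within 1 SD of each other in both groups. The leading position of Col3a1 lay outside the spread: its lowest library was above every library of the next gene.

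The family as a whole took a small share of the transcripts. The 44 collagens summed to 388, 519 and 547 TPM in control QSC, which is 0.0388 to 0.0547% of all transcripts, and between 20 and 23 members reached 1 TPM there. They summed to between 197 and 377 TPM in control cells at 1 DPI and to between 197 and 282 TPM at 3 DPI. The summed level was lower after injury in every control library than in any resting control library. In the young cells the sums were 412 to 539 TPM in QSC and 306 to 360 TPM at 1 DPI, again without overlap. Old cells did not follow: their sums were 165 to 303 TPM in QSC and 117 to 240 TPM at 1 DPI, with overlap. At 3 DPI the old sums were 269 to 422 TPM, above every old library at 1 DPI.

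Of the 44 members, 24 reached 1 TPM in at least 3 libraries of the first table and could be tested there. In the young and old table, 23 of these did, all except Col13a1. Fibrillar genes made up 7 of the 24 (Col1a1, Col1a2, Col3a1, Col5a1, Col5a2, Col5a3 and Col27a1). The other 20 members passed in neither table, and their highest value in any library was 4.34 TPM, for Col20a1 in 1 young QSC library. They include the cartilage collagens Col2a1, Col9a1, Col9a2, Col11a1 and Col11a2 and Col10a1 of hypertrophic cartilage; Col2a1 was listed at 0 in all 21 libraries of the first table and reached at most 0.194 TPM in the other. Col6a4 was likewise at 0 in all 21, and Col4a3, Col4a4 and Col4a6, the other collagen IV chains, reached at most 0.271, 0.550 and 1.53 TPM.

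**Figure D1:**
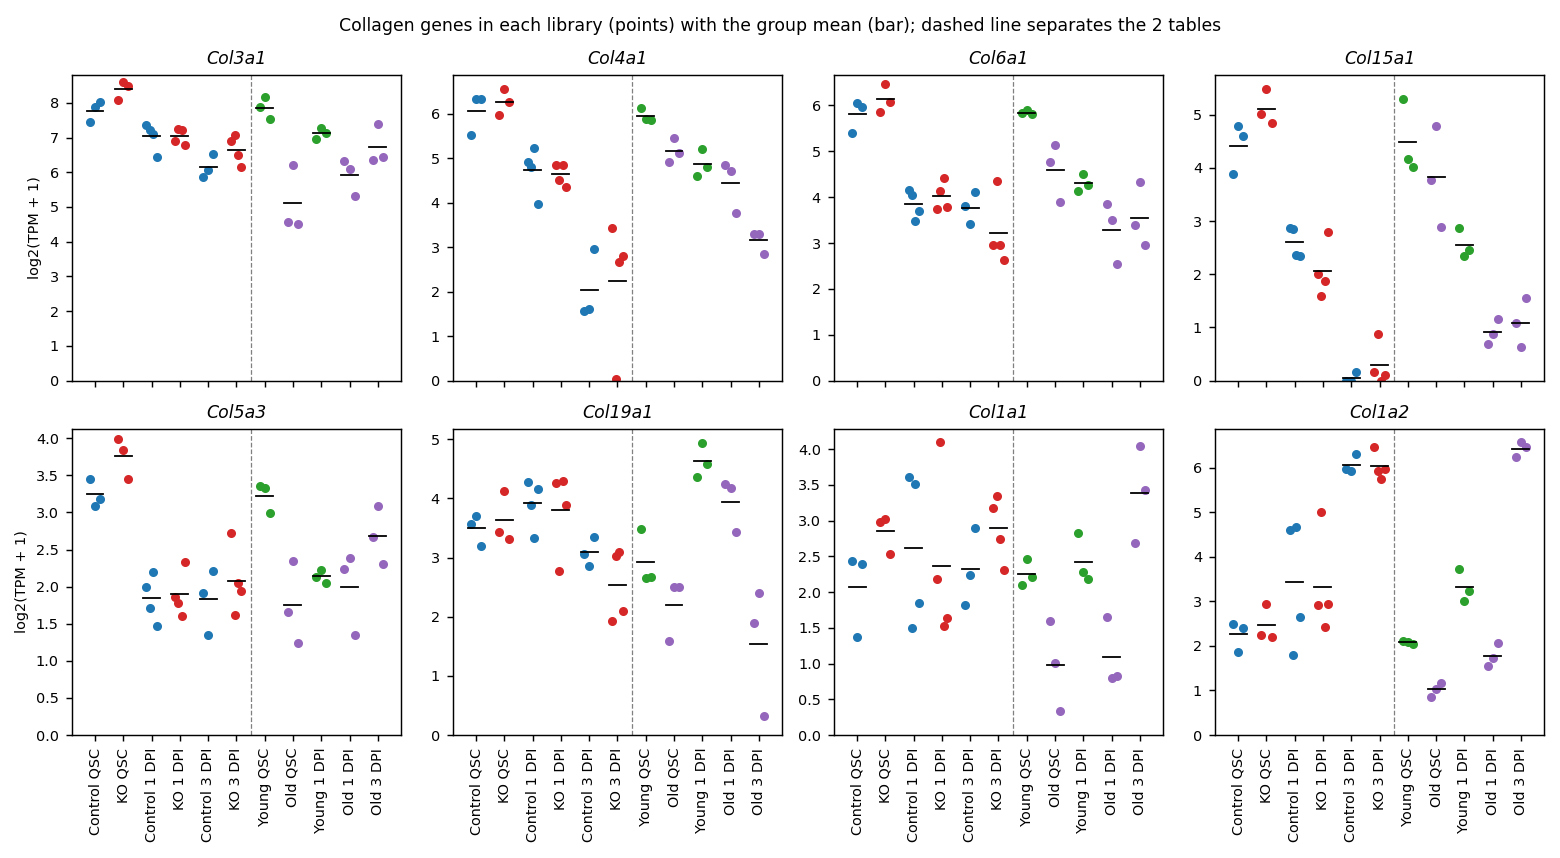
Expression of 8 collagen genes as log2(TPM + 1) in each library (points; bars are group means), by group: the 6 groups of the Drp1 table, then, right of the dashed line, the 5 groups of the young and old table, whose scale was set separately. Col4a1, Col6a1 and Col15a1 are highest in QSC, Col1a2 is highest at 3 DPI, and Col3a1 is lower in old than in young QSC.

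The first step after injury, from QSC to 1 DPI, was measured in 4 backgrounds: control, KO, young and old cells. Col15a1 and Col6a1 fell in all 4. Collagen calls were 6 of 24 in control cells (limma on log2(TPM + 1), Benjamini-Hochberg adjusted p under 0.05 over all genes), against 35.9% of all genes tested, and 9 of 24 in KO cells, against 32.1%. In young cells 7 of 23 were called, against 32.0%, and in old cells 4 of 23, against 32.5%, so the number called was near or below that of genes in general. The directions differed from those of all genes: of the called collagens 1 rose and 5 fell in control cells, where 4268 genes (23.3%) rose and 2313 (12.6%) fell in all, and 1 rose and 8 fell in KO cells, where 3959 (21.6%) rose and 1938 (10.6%) fell. In young cells 3 rose and 4 fell, and in old cells 2 and 2, where all genes gave 3934 (23.2%) against 1490 (8.79%) and 4202 (24.8%) against 1309 (7.72%). These splits depend on the scaling: with median-of-ratios factors all genes gave 3248 against 3736, 2937 against 3259, 2606 against 2504 and 2691 against 2632, and the collagens gave 1 against 11, 1 against 11, 2 against 5 and 1 against 6, in the order control, KO, young and old. The median log2 change of the tested collagens was -0.27, -0.69, -0.14 and -0.41, where that of all genes was 0.15, 0.16, 0.24 and 0.27.

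Markers of other cells moved at the same step. Of 12 macrophage markers 11 were called higher in control and in KO cells, 3 in young and 1 in old cells. Their summed level was 67.4 to 119 TPM in control QSC libraries and 344 to 4343 TPM at 1 DPI, and 54.6 to 63.3 TPM and then 537 to 8543 TPM in KO cells. It was 34.9 to 94.0 TPM and then 147 to 756 TPM in young cells, and 104 to 439 TPM and then 197 to 660 TPM, with overlap, in old cells. Of 15 fibroblast markers 3 were called lower in control, KO and young cells and 4 in old cells, and 1 was called higher in all but control cells. The fibroblast sum was 2518 to 2810 TPM in control QSC libraries and 811 to 1584 TPM at 1 DPI, and 2183 to 2866 TPM and then 889 to 1487 TPM in KO cells. It was 1676 to 2330 TPM and then 1244 to 1456 TPM in young cells, and 2682 to 2785 TPM and then 913 to 1511 TPM in old cells. In control cells the first 3 markers of the list did not follow its sum and overlapped between the days. Pdgfra was at 0 to 2.03 and then 1.375 to 15.2 TPM, and Lum at 4.28 to 11.7 and then 6.48 to 68.8 TPM. Dcn was at 67.1 to 106.5 and then 16.7 to 247.8 TPM. The tenocyte sum was 645 to 1059 TPM and then 228 to 333 TPM in control cells, and 397 to 589 TPM and then 127 to 288 TPM in KO cells. The first markers of that list were low in control cells and did not all fall. Tnmd was at 0.175 to 2.18 and then 0 to 3.585 TPM, and Scx at 0 to 0.735 and then 0.991 to 1.745 TPM. Mkx was called lower (log2 -1.16). The endothelial sum overlapped between the days in all 4 backgrounds. It was 58.7 to 91.5 TPM in control QSC libraries and 35.1 to 669 TPM at 1 DPI. In KO cells it was 33.2 to 75.0 TPM and then 51.4 to 511 TPM. Of the endothelial markers, Egfl7 (log2 2.95) and Esam (2.03) were called higher and Tek (-2.30) lower in control cells. The satellite cell sum was lower at 1 DPI as well, at 7224 to 9003 TPM and then 1942 to 2733 TPM in control cells. Their part in the collagen values was not tested.

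Col15a1 (ENSMUSG00000028339, chr4:47208161-47313167, plus strand), a proteoglycan collagen of the outer basement membrane of muscle fibres and capillaries, fell in all 4 backgrounds. It was at 13.7, 26.6 and 23.2 TPM in control QSC and at 6.34, 6.23, 4.12 and 4.08 TPM at 1 DPI. In KO cells it went from 31.3, 43.8 and 27.9 TPM to 3.00, 2.01, 2.64 and 5.92 TPM. Every resting library lay above every injured library. The log2 changes were -1.81 (SE 0.332, limma adjusted p = 0.000214) and -3.06 (SE 0.332, limma adjusted p = 7.59e-07). In young cells Col15a1 was at 38.3, 16.9 and 15.2 TPM at rest and at 6.34, 4.08 and 4.46 TPM at 1 DPI, and in old cells at 12.7, 26.7 and 6.43 TPM and then at 0.619, 0.840 and 1.22 TPM. Both falls were without overlap, with log2 changes of -1.94 (limma adjusted p = 0.00565) and -2.91 (limma adjusted p = 0.00024).

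Col6a1 (ENSMUSG00000001119, chr10:76708792-76726168, minus strand), needed with Col6a2 and a longer chain to build collagen VI, was at 41.2, 65.5 and 61.4 TPM in control QSC and at 16.9, 15.5, 10.2 and 11.98 TPM at 1 DPI. The KO values were 56.9, 88.2 and 66.4 TPM and then 12.5, 16.6, 20.2 and 12.7 TPM. Resting and injured libraries did not overlap in either genotype, and the log2 changes were -1.96 (SE 0.33, limma adjusted p = 9.0e-05) and -2.12 (SE 0.33, limma adjusted p = 5.08e-05). The change was -1.54 in young cells (limma adjusted p = 0.00888) and -1.31 in old cells (limma adjusted p = 0.0216). The old call was lost without old QSC library 1, old QSC library 2 or old 1 DPI library 3, at limma adjusted p of 0.0603, 0.0922 and 0.102. Col6a2 did not change with it past the test: its log2 changes were -0.15, -0.78, -0.64 and -0.51, in the same order of backgrounds. As a result the ratio of Col6a1 to Col6a2 TPM was 6.52 to 7.72 in control QSC libraries and 1.35 to 2.73 at 1 DPI.

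Among the collagen V chains, Col5a3, which replaces another chain in a less common form of collagen V, fell. It was at 9.98, 7.50 and 8.09 TPM in control QSC and at 2.97, 2.26, 3.60 and 1.76 TPM at 1 DPI. In KO cells it was at 14.9, 13.3 and 9.97 TPM and then at 2.64, 2.44, 2.03 and 4.03 TPM. No library at 1 DPI reached a resting one, and the log2 changes were -1.40 (SE 0.312, limma adjusted p = 0.00136) and -1.87 (SE 0.312, limma adjusted p = 0.000106). In young cells the change was -1.09 (limma adjusted p = 0.0339), a call lost in each of the 6 fits that left out 1 library, at limma adjusted p between 0.052 and 0.0972. In old cells, which began lower at 2.16, 4.11 and 1.36 TPM, it was 0.24 (limma adjusted p = 0.659). Col5a1, a chain of the main collagen V, fell in KO cells (log2 -1.40, limma adjusted p = 0.0124), a call lost without KO QSC library 2 (limma adjusted p = 0.072). In control cells its change was -0.19, and Col5a2 passed in none of the 4 backgrounds, with log2 changes between -0.45 and 0.26.

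Col3a1 fell from the values given above to 162, 148, 137 and 86.5 TPM in control cells at 1 DPI, a log2 change of -0.75 (SE 0.241, limma adjusted p = 0.0202). In KO cells it fell from 270.5, 389.8 and 357 TPM to 119, 152, 147 and 109.9 TPM, a change of -1.35 (SE 0.241, limma adjusted p = 0.000207). All injured libraries were below all resting ones in both genotypes. The control call was lost without control QSC library 2 or 3 or control 1 DPI library 4, at limma adjusted p of 0.0688, 0.0967 and 0.0744. Young cells had 122, 154 and 140.2 TPM at 1 DPI, also below every young QSC library, but the change of -0.73 did not pass (limma adjusted p = 0.211). Old cells went the other way, with 79.0, 67.7 and 38.8 TPM at 1 DPI against 22.7, 73.7 and 21.9 TPM at rest, which overlap, and a change of 0.81 (limma adjusted p = 0.16). The difference between the 2 age changes was 1.54 (limma adjusted p = 0.466 for the interaction).

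Col4a1 was lower at 1 DPI than at rest in every library of all 4 backgrounds, and the change passed in 2 of them. It was at 45.1, 79.9 and 78.9 TPM in control QSC and at 29.2, 26.98, 36.5 and 14.6 TPM at 1 DPI (log2 -1.33, limma adjusted p = 0.0704). Young cells went from 68.6, 57.9 and 57.2 TPM to 23.4, 35.9 and 26.9 TPM (log2 -1.08, limma adjusted p = 0.00886). The KO change was -1.63 (limma adjusted p = 0.0312), but that call was lost in 8 of 14 other fits. The partner Col4a2 passed in no background, with log2 changes between -0.78 and 0.10.

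Col16a1, a fibril-associated collagen that binds integrins, was at 7.002, 4.76 and 5.20 TPM in control QSC and at 0.370, 0.924, 0 and 0 TPM at 1 DPI. No injured library reached a resting one, and the log2 change was -2.37 (SE 0.455, limma adjusted p = 0.00035). In KO cells it was at 7.84, 5.02 and 0.880 TPM and then between 0 and 2.02 TPM, with overlap (log2 -1.60, limma adjusted p = 0.0101). That call was lost without KO QSC library 1 or 2, at limma adjusted p of 0.089 and 0.0523. Col7a1, of the anchoring fibrils of skin, was called lower in KO cells too (log2 -1.26, limma adjusted p = 0.0284), a call lost in 8 of 14 other fits.

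Some collagens rose at this step. Col1a2 rose in young cells, from 3.29, 3.23 and 3.14 TPM to 12.2, 6.998 and 8.32 TPM (log2 1.24, SE 0.263, limma adjusted p = 0.00251). Old cells went from 0.814, 1.05 and 1.26 TPM to 1.93, 2.31 and 3.19 TPM (log2 0.76, limma adjusted p = 0.04). Neither pair of groups overlapped, but the old call was lost in 8 of 12 other fits. Col19a1, a fibril-associated collagen first found in a rhabdomyosarcoma line, rose from 10.1, 5.30 and 5.37 TPM to 19.6, 29.8 and 22.8 TPM in young cells (log2 1.69, limma adjusted p = 0.0149) and from 2, 4.699 and 4.699 TPM to 17.9, 16.98 and 9.78 TPM in old cells (log2 1.74, limma adjusted p = 0.0123). In control and KO cells its changes were 0.42 and 0.17 and did not pass. The young call was lost without young QSC library 5 or 6 or young 1 DPI library 6 (limma adjusted p 0.0552, 0.0552 and 0.056), and the old call without old QSC library 1 (limma adjusted p = 0.0526).

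Col17a1, a transmembrane collagen of epithelial hemidesmosomes, stayed low but rose in KO cells, from 0.385, 0.592 and 0.310 TPM to 3.26, 1.54, 1.05 and 2.52 TPM (log2 1.06, limma adjusted p = 0.00337). It was also called in young cells (log2 1.15, limma adjusted p = 0.0363), a call lost in 9 of 12 other fits. Col8a1, a short-chain collagen of vessel walls and Descemet's membrane, rose in control cells from 3.79, 1.64 and 2.18 TPM to 11.2, 8.58, 15.3 and 4.89 TPM (log2 1.59, limma adjusted p = 0.0042). The 2 highest of these were the libraries with high Pdgfra, and without them the change was 1.13 (limma adjusted p = 0.0778). In KO cells the change of 0.90 was not called. There the highest value, 15.7 TPM, was in KO library 3 at 1 DPI, which held 0.341 TPM of Pdgfra.

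**Figure D2:**
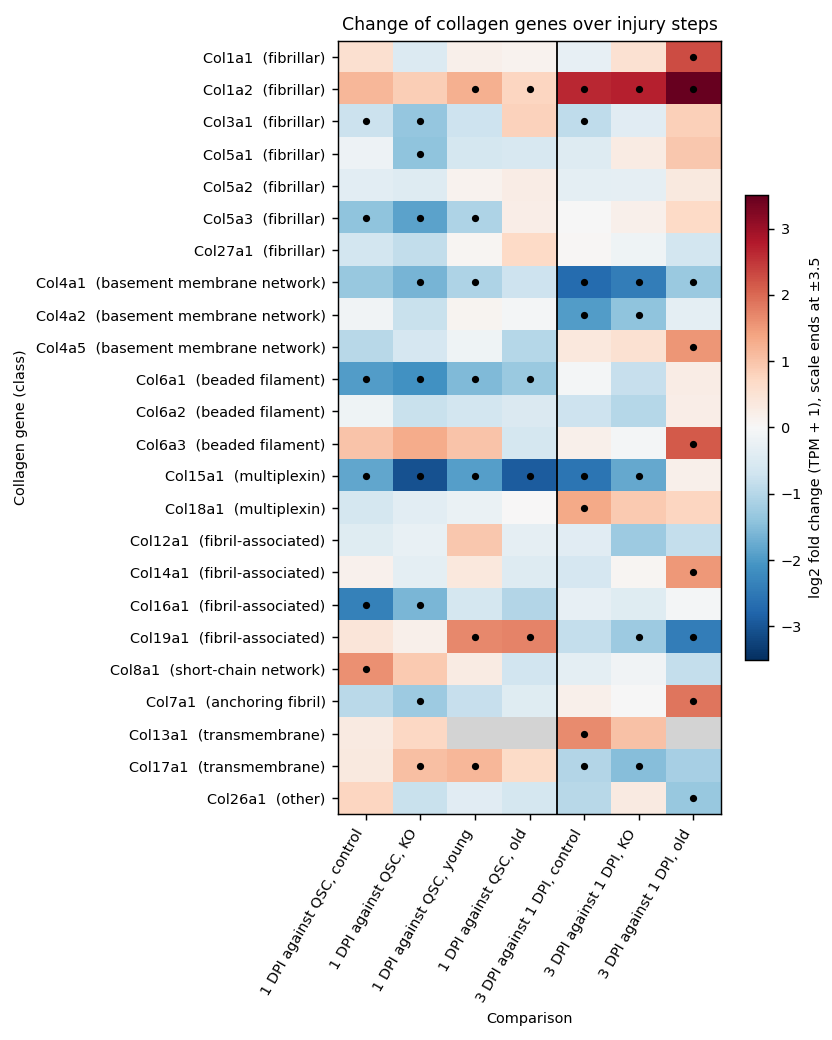
Log2 fold change on the TPM + 1 scale (colour; red higher after the step, blue lower) of the 24 collagens tested, by class (rows), in the 4 QSC to 1 DPI comparisons and the 3 comparisons of 3 DPI with 1 DPI (columns; black line between them). Dots mark limma adjusted p under 0.05 and grey marks a gene not tested; Col6a1 and Col15a1 are called lower in all 4 first steps and Col1a2 higher in all 3 second steps, where its old value of 4.64 lies beyond the colour scale.

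From 1 to 3 DPI Col1a2 rose in all 3 backgrounds measured, while Col4a1 fell in all 3. In control cells 8 of 24 members were called (13.3% of all genes were), in KO cells 6 of 24 (18.9%), and in old cells 9 of 23 (17.5%). The called collagens were 3 higher and 5 lower in control cells, 1 and 5 in KO cells, and 6 and 3 in old cells, where all genes gave 933 (5.09%) against 1513 (8.25%), 1247 (6.8%) against 2217 (12.1%), and 973 (5.74%) against 2001 (11.8%). With median-of-ratios factors the collagens gave 3 against 5, 2 against 5 and 8 against 2, and all genes gave 1196 against 1300, 1452 against 2020 and 1354 against 916. Median log2 changes were -0.34, -0.14 and 0.26 over the tested collagens and -0.13, -0.17 and -0.24 over all genes. The sorted fraction also differed between these days by its CD34 gate in the reporter mice, and the fall of Cd34 itself is not read as a result.

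Col1a2 (ENSMUSG00000029661, chr6:4504814-4541544, plus strand) was at 23.3, 2.45, 24.3 and 5.30 TPM in control cells at 1 DPI and at 61.4, 59.6 and 78.1 TPM at 3 DPI. In KO cells it was at 6.51, 31.2, 4.36 and 6.64 TPM and then at 87.4, 60, 52.9 and 61.8 TPM. In old cells it went from 1.93, 2.31 and 3.19 TPM to 74.3, 94.6 and 86.8 TPM. Every library at 3 DPI was above every library at 1 DPI, and the log2 changes were 2.64 (SE 0.598, limma adjusted p = 0.00552), 2.71 (SE 0.554, limma adjusted p = 0.00187) and 4.64 (SE 0.263, limma adjusted p = 1.75e-07). Without the 3 libraries of high Pdgfra, which hold the highest 1 DPI values, the first 2 changes were 3.84 and 3.28. The control call was lost when only the groups compared were fitted (limma adjusted p = 0.0705).

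Its partner did not follow in the reporter mice. Col1a1, which supplies most of the chains in collagen I, was at 11.2, 1.83, 10.4 and 2.61 TPM in control cells at 1 DPI and at 2.54, 3.73 and 6.47 TPM at 3 DPI (log2 -0.30, limma adjusted p = 0.808). The KO change was 0.53 (limma adjusted p = 0.541), to 8.05, 9.13, 5.68 and 3.94 TPM. In old cells Col1a1 rose from 2.15, 0.744 and 0.769 TPM to 5.44, 15.5 and 9.74 TPM (log2 2.29, limma adjusted p = 0.00221). The ratio of Col1a2 to Col1a1 TPM was 1.02 to 1.66 in control QSC libraries, 1.34 to 2.33 at 1 DPI and 12.1 to 24.2 at 3 DPI. It was 6.57 to 15.7 in KO and 6.09 to 13.7 in old libraries at 3 DPI. A gene model of the same strand, Gm43921, lies within Col1a2 for 1792 bases, and how reads were shared between them is not stated.

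**Figure D3:**
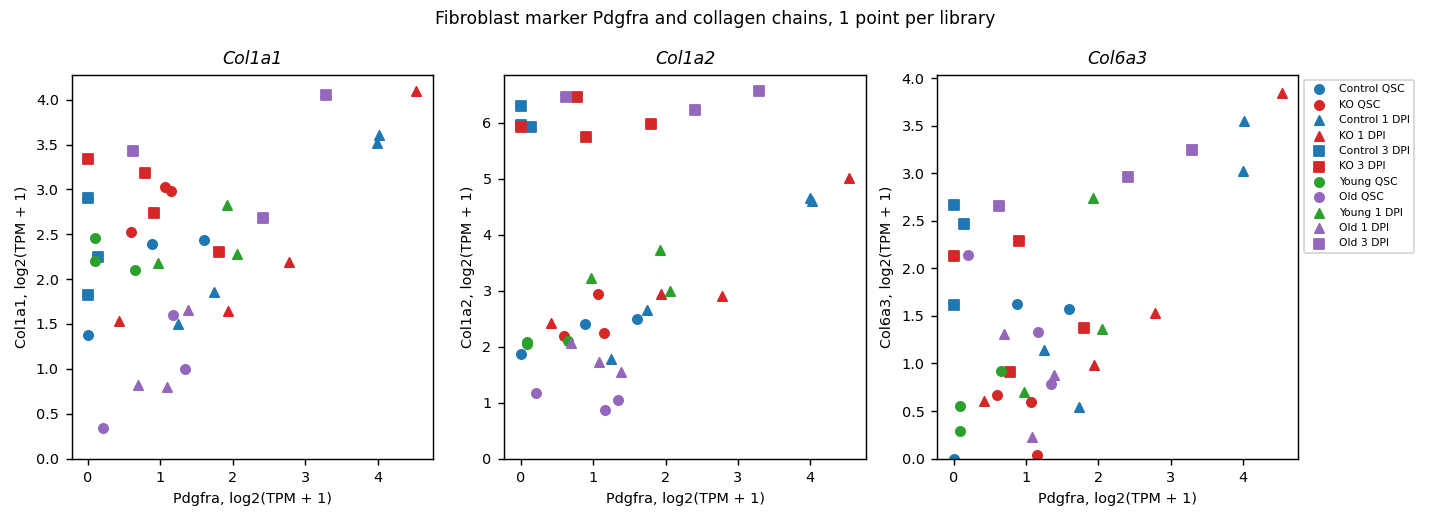
Col1a1, Col1a2 and Col6a3 (vertical axes) against the fibroblast marker Pdgfra (horizontal axes), all as log2(TPM + 1), 1 point per library; circles are QSC, triangles 1 DPI and squares 3 DPI, coloured by background, and TPM were set separately in the 2 tables. The 3 triangles at the right are control 1 and 3 and KO 2 at 1 DPI; the squares of control and KO cells lie at 0 to 2.49 TPM of Pdgfra with Col1a2 at 52.9 TPM or more.

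In control and KO cells at 1 DPI, Col1a1, Col1a2 and Col6a3 were highest in the 3 libraries of high Pdgfra. Col6a3, the long chain of collagen VI, was at 10.7, 1.21, 7.12 and 0.458 TPM in control and 1.90, 13.4, 0.517 and 0.979 TPM in KO cells at 1 DPI. At 3 DPI the control and KO libraries held 0 to 2.49 TPM of Pdgfra and 0 to 28.3 TPM of Dcn, also a fibroblast marker, with 177 to 309 TPM summed over the 15 markers of that list against 811 to 1584 TPM at 1 DPI. Col1a2 was higher in those 3 DPI libraries than in any control or KO library at 1 DPI. The old 3 DPI libraries held 4.32, 8.79 and 0.538 TPM of Pdgfra, 490 to 662 TPM summed over the list, and the macrophage markers given above. In them Col6a3 rose to 6.79, 8.49 and 5.29 TPM from 0.836, 0.174 and 1.48 TPM (log2 2.15, limma adjusted p = 0.00965). The part of other cells in the control and KO values was not tested beyond leaving out the 3 libraries. In the old values it was not tested.

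The basement membrane chains Col4a1 and Col4a2 fell from 1 to 3 DPI in control and KO cells. Col4a1 was at 1.94, 2.05 and 6.76 TPM in control and at 9.76, 0.0223, 5.31 and 5.98 TPM in KO cells, below every 1 DPI library of the same genotype. The log2 changes were -2.69 (SE 0.559, limma adjusted p = 0.0028) and -2.41 (SE 0.517, limma adjusted p = 0.00274). In old cells Col4a1 fell from 27.6, 25.1 and 12.7 TPM to 8.87, 8.80 and 6.21 TPM (log2 -1.29, limma adjusted p = 0.00646). Col4a2 fell with it in control cells, to 1.49, 0.202 and 1.99 TPM (log2 -1.96, limma adjusted p = 0.00388), and in KO cells (log2 -1.40, limma adjusted p = 0.0167), but in old cells its change was -0.34. The control call of Col4a2 was lost without the 2 libraries of high Pdgfra (limma adjusted p = 0.0878). Those 2 libraries were also high in endothelial markers, whose part was not tested. The KO call of Col4a2 was lost without KO 3 DPI library 3 or 4 (limma adjusted p of 0.0561 and 0.0533).

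Col15a1 fell further and was at 0, 0 and 0.122 TPM in control and 0.114, 0.846, 0 and 0.0683 TPM in KO cells at 3 DPI. These are the lowest values of the gene in the table, and the log2 changes were -2.55 (SE 0.332, limma adjusted p = 2.77e-05) and -1.78 (SE 0.307, limma adjusted p = 0.000415). Old cells, already at 0.619 to 1.22 TPM at 1 DPI, stayed at 0.541 to 1.94 TPM. The related Col18a1, whose end fragment is endostatin, went up instead in control cells, from between 0.671 and 1.698 TPM to 3.35, 3.51 and 5.75 TPM (log2 1.33, limma adjusted p = 0.0124), and the KO change of 0.91 was at the threshold (limma adjusted p = 0.0503). The control call was lost without control 3 DPI library 3 (limma adjusted p = 0.0788), and the coding gene Slc19a1 overlaps Col18a1 on the other strand for 8825 bases.

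Col17a1 and Col19a1, raised in parts of the first step, fell in the second. Col17a1 went to 0 to 0.320 TPM in control (log2 -1.03, limma adjusted p = 0.0111) and 0 to 0.194 TPM in KO cells (log2 -1.50, limma adjusted p = 0.000195). Col19a1 fell in KO cells to 2.81, 7.19, 7.57 and 3.28 TPM (log2 -1.26, limma adjusted p = 0.0151) and in old cells to 2.73, 4.26 and 0.254 TPM (log2 -2.41, limma adjusted p = 0.00375), and in control cells its change was -0.83 (limma adjusted p = 0.164). The control call of Col17a1 was lost without control 3 DPI library 2 (limma adjusted p = 0.0623) or the libraries of high Pdgfra (limma adjusted p = 0.051), and the KO call of Col19a1 without KO 1 DPI library 3 or KO 3 DPI library 1 (0.0513 and 0.0528). Col13a1, a transmembrane collagen of the neuromuscular junction, rose in control cells from 1.25, 0.0693, 0 and 0.149 TPM to 2.96, 5.68 and 1.56 TPM without overlap (log2 1.66, limma adjusted p = 0.0204). KO cells reached 2.98, 0.356, 6.04 and 2.37 TPM, with overlap (log2 1.04, limma adjusted p = 0.0963), and the control call was lost without control 1 DPI library 3 or control 3 DPI library 1 or 2 (0.0556, 0.0562 and 0.127).

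Col3a1 fell in control cells to 56.9, 66.6 and 91.7 TPM at 3 DPI (log2 -0.88, limma adjusted p = 0.0198). KO cells had 118, 132, 89.9 and 69.8 TPM (log2 -0.39, limma adjusted p = 0.239) and old cells 80.8, 168 and 86.4 TPM (log2 0.82, limma adjusted p = 0.201). The control days overlapped in 1 library each, at 86.5 and 91.7 TPM, the KO days overlapped, and every old library at 3 DPI was above every old library at 1 DPI. The control call was lost without control 1 DPI library 1 or 2 or control 3 DPI library 1 or 2, at limma adjusted p between 0.0505 and 0.108, and without the libraries of high Pdgfra (limma adjusted p = 0.174). At 3 DPI the most abundant collagen was Col1a2 in 1 of 3 control and 1 of 3 old libraries, and Col3a1 in the rest and in all 4 KO libraries. Old cells added Col4a5 (log2 1.56), Col7a1 (1.86) and Col14a1 (1.51) as higher and Col26a1 (-1.32) as lower, each of them lost in 7 or 8 of 12 other fits. Col26a1 shares stretches of at least 100 bases with 40 other genes, so its reads are uncertain.

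KO cells were compared with control cells in each state, the contrast for which the Drp1 table was made. No collagen passed the test in any state: 0 of 24 in QSC (0.213% of all genes were called), 0 of 24 at 1 DPI (0.278%) and 0 of 24 at 3 DPI (0.283%). At an unadjusted p under 0.05 there were 3, 1 and 0 of the 24, beside 870, 963 and 996 of 18343 genes, and every other fit that was run also called 0. The median log2 difference of the 24 was 0.20, -0.04 and 0.05, where that of all genes was 0.01, 0.00 and -0.00. These counts of 0 lie near the background shares. The 95% intervals were wide, with a median half-width of 0.93, 0.81 and 0.87 on the log2 scale, so equal levels were not shown.

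In QSC the KO libraries, whose Dnm1l TPM overlapped that of the controls, lay on the high side for some collagens. Col3a1 was at 270.5, 389.8 and 357 TPM in KO and at 173, 234 and 258 TPM in control cells (log2 0.61, SE 0.258, limma adjusted p = 0.90). Col15a1 was at 31.3, 43.8 and 27.9 TPM against 13.7, 26.6 and 23.2 TPM (log2 0.70, limma adjusted p = 1.0). Col1a1 (log2 0.78) and Col27a1 (log2 0.85) were the other members whose KO libraries were all above the control libraries. That made 4 of 24 members with all KO values higher, beside 5.24% of all genes, and 0 with all lower, beside 4.51%. The summed collagens were 549.8, 795 and 655 TPM in KO against 388, 519 and 547 TPM in control QSC. Beside this, the 10 pericyte and smooth muscle markers summed to 322 to 426 TPM in KO and 154 to 202 TPM in control QSC, while Rgs5, the pericyte marker that heads that list, was at 3.89 to 9.24 against 5.86 to 10.8 TPM. The tenocyte list summed to 397 to 589 against 645 to 1059 TPM. Of its first markers, Tnmd was at 0 to 0.952 against 0.175 to 2.18 TPM and Scx at 0.087 to 0.645 against 0 to 0.735 TPM. Their part in the collagen values was not tested.

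At 1 DPI no member had non-overlapping genotypes, where 1.31% of all genes were higher and 1.19% lower in this way, and at 3 DPI Col26a1 alone did, with all 4 KO libraries higher (log2 0.60; 2.98% of all genes were higher in this way and 3.25% lower). The change over a step was also compared between genotypes. No collagen passed for the step to 1 DPI, where 4 of 18343 genes did (0.0218%), or for the step from 1 to 3 DPI, where 0 did (0.0%). At an unadjusted p under 0.05 there were 2 and 1 of the 24 collagens. The widest difference for a member called in both genotypes at the first step was that of Col15a1, with -3.06 in KO and -1.81 in control cells.

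**Figure D4:**
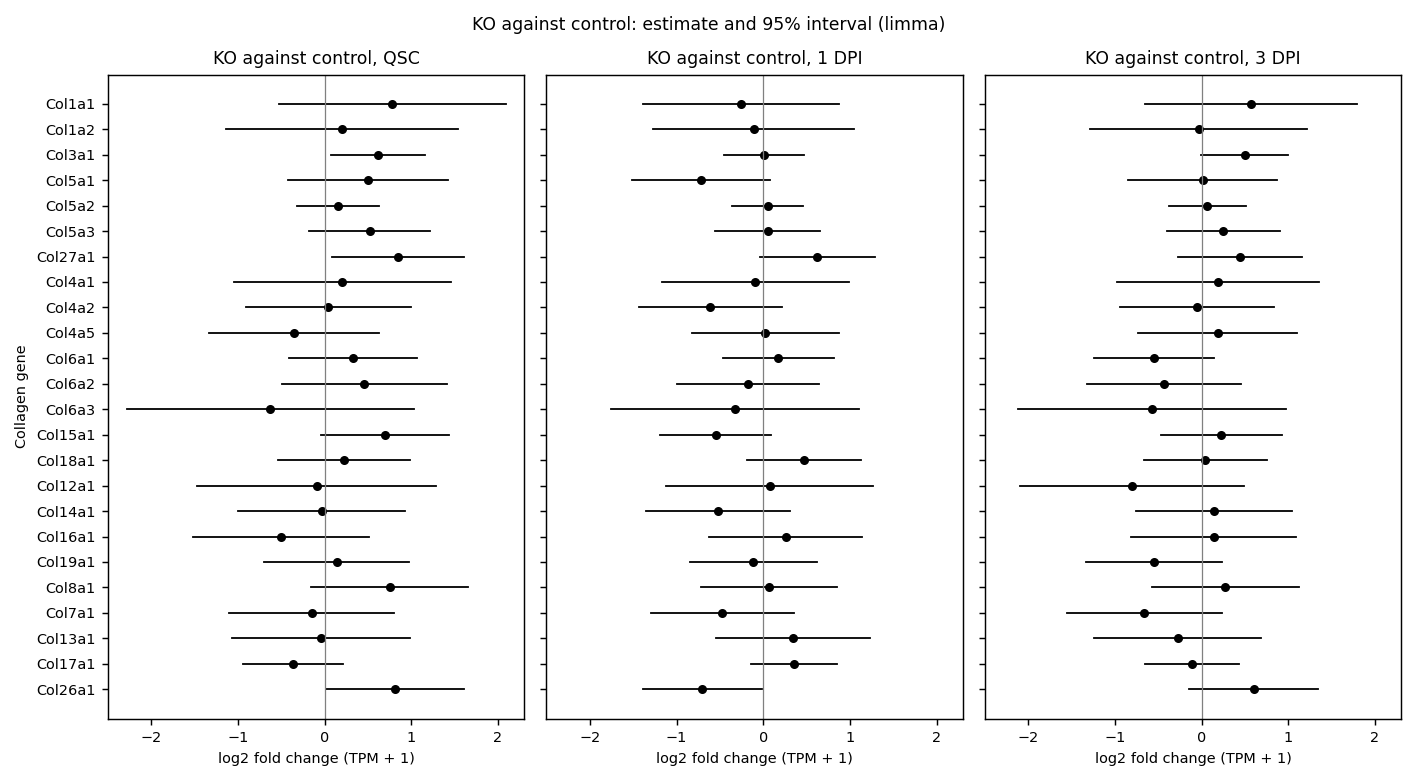
KO against control in QSC, at 1 DPI and at 3 DPI: log2 difference on the TPM + 1 scale (points) with its 95% interval from limma (lines) for 24 collagens, ordered by class. No gene has an adjusted p under 0.05, and the points in QSC lie between -0.63 and 0.85.

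Age was compared in QSC and at 1 DPI in WT mice. Old quiescent cells had less Col3a1: 22.7, 73.7 and 21.9 TPM against 233, 284 and 183 TPM in young cells. The groups were far apart, and the log2 difference was -2.75 (SE 0.417, limma adjusted p = 0.0106). It was the one collagen of 23 called, beside 0.726% of all genes (0.384% lower and 0.342% higher). Its share of the summed collagens was 12.9, 24.3 and 13.3% in old QSC and 43.9, 52.8 and 44.4% in young QSC, and in 2 of the 3 old libraries Col4a1 took the lead. The log2 difference lay between -3.31 and -2.46 in 11 other fits, with limma adjusted p between 0.000781 and 0.194. The call was lost without young QSC library 5, the one of 284 TPM (-2.59, limma adjusted p = 0.0648), and when only these 2 groups were fitted (limma adjusted p = 0.194). The old libraries differed in their markers. Library 2, with 73.7 TPM of Col3a1, held 104 TPM of summed macrophage markers, against 437 and 439 TPM in libraries 1 and 3. Its satellite cell markers summed to 8279 TPM, against 5082 and 6547 TPM. The part of these marker differences in Col3a1 was not tested.

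Most other collagens of old QSC were lower as well, without passing the test. Of the 23 tested, 18 had a log2 difference below 0 and the median was -0.67, where that of all genes was -0.04. All old libraries were below all young ones for 12 members, beside 14.3% of all genes: all tested fibrillar genes except Col5a1 and Col27a1, with Col4a1, Col4a2, Col6a1, Col6a2, Col7a1, Col19a1 and Col26a1. Col5a3 was at 2.16, 4.11 and 1.36 TPM against 9.29, 9.03 and 6.98 TPM (log2 -1.48, limma adjusted p = 0.073), and Col6a1 at 26.05, 34.2 and 13.9 TPM against 55.8, 58.4 and 54.9 TPM (log2 -1.24, limma adjusted p = 0.17). Col1a2 was at 0.814, 1.05 and 1.26 TPM against 3.29, 3.23 and 3.14 TPM (log2 -1.05, limma adjusted p = 0.0763). At an unadjusted p under 0.05 there were 12 of the 23 collagens, beside 2382 of 16949 genes, and 9 of these 12 were lower. The summed collagens were 165 to 303 TPM in old and 412 to 539 TPM in young QSC.

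A few members went the other way. Col8a1 was at 14.1, 26.99 and 19.3 TPM in old and 6.44, 7.70 and 5.94 TPM in young QSC (log2 1.42, limma adjusted p = 0.118), and Col12a1, a fibril-associated collagen of tendon and fascia, was at 18.97, 8.995 and 8.82 TPM against 4.61, 5.41 and 4.10 TPM (log2 1.14, limma adjusted p = 0.20). These 2 had all old libraries higher, beside 7.43% of all genes. Markers of other cells were read beside these values. Dcn was higher in old QSC, at 429.8, 439.7 and 563 TPM against 175, 110.4 and 108 TPM (log2 1.88, the only one of 15 fibroblast markers called). Pdgfra was low at both ages, at 0.153 to 1.53 against 0.0652 to 0.567 TPM with overlap, and Lum was at 9.87 to 22.7 against 6.67 to 9.53 TPM. The fibroblast list summed to 2682 to 2785 against 1676 to 2330 TPM, and the macrophage list to 104 to 439 against 34.9 to 94.0 TPM. The tenocyte list, at 340.5 to 571 against 467 to 479.7 TPM, and the pericyte and smooth muscle list, at 151 to 224 against 157 to 256 TPM, overlapped between the ages. The satellite cell list summed to 5082 to 8279 in old and 7274 to 8567 TPM in young QSC. The part of these differences in the collagen values was not tested.

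At 1 DPI Col1a2 was lower in old cells, at 1.93, 2.31 and 3.19 TPM against 12.2, 6.998 and 8.32 TPM, without overlap (log2 -1.53, SE 0.263, limma adjusted p = 0.038). It was the one member of 23 called, beside 0.142% of all genes (0.0708% in each direction), and the call was lost in 8 of 11 other fits, whose limma adjusted p ran from 0.00255 to 0.273. Those that left out a library and lost it were without young 1 DPI library 5, 6 or 7 or old 1 DPI library 1 or 2, at limma adjusted p between 0.053 and 0.161. Of the 23 collagens 19 had differences below 0, with a median of -0.58 where that of all genes was 0.01, 9 had all old libraries lower, beside 7.27% of all genes, and 0 had all higher, beside 7.63%. Col15a1 was at 0.619, 0.840 and 1.22 TPM against 6.34, 4.08 and 4.46 TPM (log2 -1.65, limma adjusted p = 0.268), and Col3a1 at 79.0, 67.7 and 38.8 TPM against 122, 154 and 140.2 TPM (log2 -1.21, limma adjusted p = 0.441). The steps from QSC to 1 DPI did not differ between ages past the test for any collagen: 0 of 23 passed, beside 0.0118% of all genes, and 4 had an unadjusted p under 0.05. Sums of other marker lists were lower in old than in young 1 DPI libraries, without overlap: 79.8 to 166 against 254 to 268 TPM for pericytes and smooth muscle, 148 to 195 against 224 to 266 TPM for Schwann cells (Sox10 at no more than 0.139 TPM in any of them), and 79.7 to 173 against 246 to 506 TPM for myofibres. Kcnj8 of the pericyte list went against its sum, at 11.2, 14.2 and 8.68 TPM in old and 4.02, 3.98 and 3.27 TPM in young libraries. Rgs5 and Abcc9 of that list overlapped between the ages. The part of these marker differences in the age values was not tested.

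**Figure D5:**
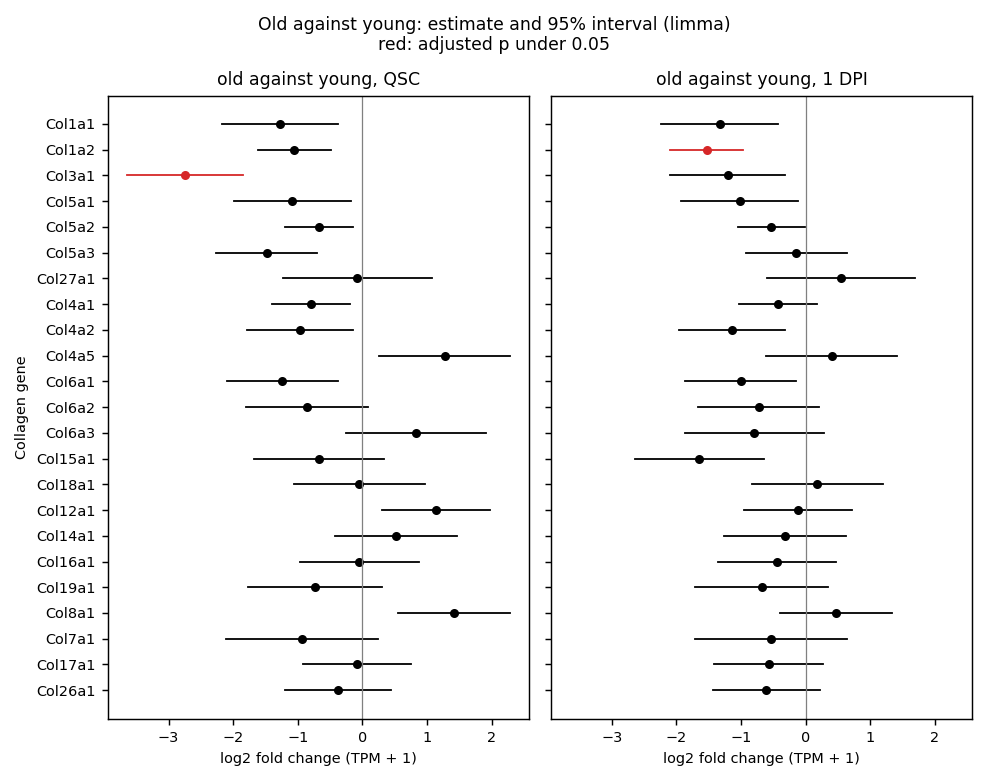
Old against young WT cells in QSC and at 1 DPI: log2 difference on the TPM + 1 scale (points) with its 95% interval from limma (lines) for 23 collagens, ordered by class; red marks an adjusted p under 0.05. Col3a1 in QSC, at -2.75, and Col1a2 at 1 DPI, at -1.53, are red, and 18 and 19 points lie below 0.

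The enzymes and chaperones that make collagen were read from 4 lists. Their counts stand beside the shares of all genes called, 35.9, 32.1, 32.0 and 32.5% at the first step in control, KO, young and old cells and 13.3, 18.9 and 17.5% at the second in control, KO and old cells. At the first step 5 of 13 genes of hydroxylation and glycosylation and 5 of 13 of folding and secretion were called in control cells, near that share. None of their members was called between KO and control cells. At the step to 1 DPI the prolyl 4-hydroxylases that stabilise the collagen helix fell: P4ha1 was at 99.5 to 120.2 TPM in control QSC and at 37.7 to 54.1 TPM at 1 DPI (log2 -1.24), and P4ha2 at 97.6 to 112 TPM and then at 20.5 to 33.2 TPM (log2 -1.91). P4ha1 was called lower in all 4 backgrounds, and P4ha2 in all except old cells. Ppib, a proline isomerase of the endoplasmic reticulum, rose in all 4 (log2 1.40, 1.01, 1.31 and 1.55). Of the 13 tested genes of hydroxylation and glycosylation, 3 rose and 2 fell in control, 1 and 2 in KO, 2 and 3 in young and 3 and 1 in old cells. At the step to 3 DPI both prolyl hydroxylases fell in control, KO and old cells, and of the same 13 genes 1 rose and 6 fell, 1 and 5, and 0 and 4.

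Of 13 folding and secretion genes, 1 rose and 4 fell at the first step in control, 1 and 5 in KO, 3 and 2 in young and 5 and 2 in old cells. Hspa5, the general chaperone BiP, and Creb3l1, a factor that drives collagen secretion genes, fell in all 4; Hspa5 went from 3899 to 4488 TPM in control QSC to 1539 to 1749 TPM. Serpinh1, the collagen-specific chaperone, rose in young (log2 1.26) and old cells (log2 1.88). Sparc, a collagen-binding matrix protein, was the one gene of these lists called with age: it was at 162 to 283 TPM in old and 584 to 789 TPM in young QSC (log2 -1.67). At the second step 0 rose and 2 fell in control and KO cells, and 1 and 2 in old cells.

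The processing enzymes also split at the first step. Loxl2, a lysyl oxidase that cross-links collagen IV, and Bmp1, the protease that trims procollagen ends, fell in all 4 backgrounds, with log2 changes of -2.61 and -1.69 in control cells. Adamts14, a protease that removes the other procollagen end, rose in all 4, from 0.324 to 1.006 TPM to 3.87 to 8.57 TPM in control cells (log2 2.06). Of the 11 genes tested, 3 rose and 2 fell in control and 2 and 2 in KO cells, and of 10 tested, 2 and 3 in young and 1 and 3 in old cells. Of the receptors, Ddr2, a kinase that collagen fibrils activate, fell at this step in control, KO and young cells (log2 -1.31, -1.29 and -1.21). Calcr, through which collagen V acts on satellite cells and which also stands in the satellite cell list, fell in the same 3 (log2 -1.95, -1.97 and -1.37), and it fell from 1 to 3 DPI (log2 -2.24 in control, -2.92 in KO and -2.13 in old cells), when control libraries held 1.94 to 2.68 TPM. No other receptor of 8 tested was called at the first step.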

How the data were processed

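Freshly sorted satellite cells were sequenced single-end. Gene-level TPM values were computed by the authors with RSEM 1.3.1 on GRCm38 and deposited as tables of 21 and 15 libraries; CASAVA 1.8.2 and cutadapt 1.7.1 also stand in the submitters' processing notes. A low-input kit and a directional protocol are both named in the labels' protocols, so the use of strand is not settled. TPM keeps no depth: the depth is unknown, and 12325 to 14969 genes per library reached 1 TPM. GENCODE M21 gave symbols for 55144 of 55471 identifiers.

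Each table was fitted separately with limma 3.58.1 (R 4.3.3) on log2(TPM + 1), with 1 coefficient for each group and variances shrunk towards a trend, over 18343 and 16949 genes of at least 1 TPM in at least 3 libraries. Benjamini-Hochberg adjustment ran over all genes tested, with a threshold of 0.05. Fold changes on this scale understate those of low genes. The fit was tested on simulated data. Alternatives were a pseudocount of 0.1, no filter, median-of-ratios scaling, array weights, fitting only the groups compared, a replicate block and leaving out each library. Leaving out the 1 DPI libraries above 10 TPM of Pdgfra was chosen after seeing the data. Shared sequence was searched with BLAST 2.17.0.

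The members and lists were chosen with earlier results of these data known. Library values are given for members called in a genotype or age comparison or in the steps of several backgrounds and for the most abundant members; others are named as examples. In no comparison was every correlation between same-numbered libraries above 0.1 (they ran from -0.21 to 0.19), so numbers were not taken as pairs.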

Additional observations from a re-analysis of the deposited data

Results flagged for a closer look

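In 4 of 72 pairs of a collagen and a group of 4 libraries, 1 library lay far from the other 3, its gap, as a share of the range, exceeding Dixon's 95% critical value. Chance gives about 1 in 20 such pairs for normally distributed values. Where the other 3 values are all 0, any value above 0 is flagged, so that rate does not apply. Col14a1, a fibril-associated collagen, was at 1.48 TPM in KO library 2 at 1 DPI, one of the libraries of high Pdgfra, and at 0 to 0.153 TPM in the others. Col5a1 was at 1.82 TPM in KO library 2 at 3 DPI against 5.93 to 7.14 TPM. In KO library 4 at 3 DPI, Col7a1 was at 0.991 TPM and Col16a1 at 0.695 TPM, and both were listed at 0 in the other 3.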

How the results depend on the processing

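Of 51 collagen changes called, 20 were called in every alternative, among them Col15a1 in all its steps except the young one and Col1a2 from 1 to 3 DPI in KO and old cells; over 674 refits 544 kept the call, 130 lost it and 0 reversed. Between genotypes, and for the interactions, 0 collagens were called in all fits. Old against young QSC (1 called) gave 2 with a pseudocount of 0.1, 13 with no filter, 0 with only the groups compared and 0 to 3 without 1 library; with no filter, the shared low value of that table enters the test. At 1 DPI the age count (1) was 0 with that pseudocount, with median-of-ratios scaling or with only the groups compared, 2 with array weights and 0 to 1 without 1 library. From QSC to 1 DPI, control cells (6) gave 12 with median-of-ratios scaling and 5 to 7 without 1 library, and KO cells (9) gave 6 to 9 without 1 library. Young cells (7) gave 4 with that pseudocount or no filter, 3 with the replicate block (losing Col4a1, Col5a3, Col15a1 and Col17a1 at limma adjusted p of 0.0731, 0.0955, 0.123 and 0.182) and 4 to 6 without 1 library. Old cells (4) gave 7 with no filter or median-of-ratios scaling, 2 with only the groups compared and 2 to 5 without 1 library. From 1 to 3 DPI, control cells (8) gave 4 with only the groups compared, 5 without the libraries of high Pdgfra and 5 to 9 without 1 library; KO cells (6) gave 3 with only the groups compared and 5 to 8 without 1 library; old cells (9) gave 14 with no filter, 4 with only the groups compared and 5 to 8 without 1 library. The cause of these moves was not tested. Median-of-ratios scaling moved the median of all genes from 0.15, 0.16, 0.24 and 0.27 to -0.06, -0.05, -0.02 and -0.07 for the first step in control, KO, young and old cells, and from -0.24 to 0.01 for the second step in old cells. The replicate block changed no other count by over 1.5 times; in the first step of control and old cells every library correlated best with its own number, a hint from the data only. No paired analysis was possible for old against young cells because they share fewer than 2 replicate numbers. TPM gives no depth, so no counting interval could be set on low values.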
